A study of Mus musculus with 6 samples.

Results

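The calcium/calmodulin-dependent kinases described here are 10 genes: Camk2a, Camk2b, Camk2d and Camk2g, which encode the subunits of CaMKII, Camk1, Camk1d, Camk1g and Camk4, which encode the CaMKI and CaMKIV kinases, and Camkk1 and Camkk2, which encode the kinases that activate them. They were taken by name from a table of 20040 gene entries, and all 10 were present and tested. The table covers 6 mRNA libraries of cortical neurons taken at embryonic day 18 from mice of the C57BL/6 strain: 3 are labelled wild type (WT) and 3 KDM6B KO (KO). Kdm6b encodes a histone demethylase that takes repressive methyl groups off lysine 27 of histone H3. Neither the deleted part of Kdm6b nor a driver line, the days in culture, or whether replicates are separate cultures or embryos is given in the sources used here. A p-value below therefore reflects how far these 6 libraries scatter, and that scatter may be technical.

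CaM kinases turn a rise of intracellular calcium into phosphorylation: calcium-loaded calmodulin binds each kinase and frees its catalytic site. CaMKII assembles into large rings whose subunits phosphorylate each other and so stay active after calcium has fallen, and its alpha and beta subunits are among the abundant proteins of the forebrain synapse. CaMKI and CaMKIV act as single subunits that also need phosphorylation by CaMKK1 or CaMKK2, and CaMKIV in the nucleus phosphorylates the transcription factor CREB.

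Levels are in TPM, reads divided by gene length and scaled to a library total of 1000000. The whole counts behind these values were recovered as the smallest that fit, and added up to between 19761714 and 23503660 per library. True counts may be whole multiples of these, so counts are lower bounds and the variation given for counting alone is an upper bound. Kdm6b lay at 30.3 to 30.9 TPM in WT and 11.1 to 12.0 TPM in KO, which is 37.3% of the WT level. The value sums over the whole gene. Uty, Kdm5d, Ddx3y and Eif2s3y, which are Y-linked, were at 7.53 to 43.8 TPM in WT and at most 0.472 TPM in KO, so in every result here sex mix and genotype cannot be told apart. Of 6 neuron markers, Tubb3 rose to 112% of WT (limma adjusted p = 0.017), Rbfox3 fell to 87.0% (adjusted p = 0.0078) and 4 did not pass. The 6 summed to 6059 to 6089 TPM in WT and 6310 to 6408 TPM in KO. Each of the 8 microglial markers had a mean below 1 TPM; their sum was 1.77 to 2.12 TPM in WT and 2.10 to 4.29 TPM in KO, and the 1 tested, Aif1, did not pass (adjusted p = 0.75).

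In KO neurons 4 of the 10 kinase transcripts fell and none rose. Camk2a fell furthest, to 75.1% of WT, and Camk2b, Camk2d and Camk1d fell to 88.7%, 89.6% and 92.2%. Genes were tested with limma on log2 of TPM plus 0.5, two-sided, over the 14983 genes whose mean reached 0.5 TPM. A gene passed at a Benjamini-Hochberg adjusted p below 0.05. By that rule 6.74% of all tested genes were lower in KO and 4.15% were higher, against 4 and 0 of the 10 kinases. The median log2 fold change was -0.12 over the kinases and -0.02 over all tested genes. Of the kinases, 6 lower and 1 higher had an unadjusted p under 0.05, against 16.2% and 10.3% of all tested genes. Limma voom on the recovered counts called 5 lower and 1 higher, against 9.04% and 8.49% of all tested genes, so that 1 of 10 higher is near the share over all genes by either count. The balance of all calls depended on scaling: 622 genes were higher and 1010 lower in TPM as deposited, but 867 and 767 after median centring, which shifted all log2 fold changes by about 0.03.

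**Figure D1:**
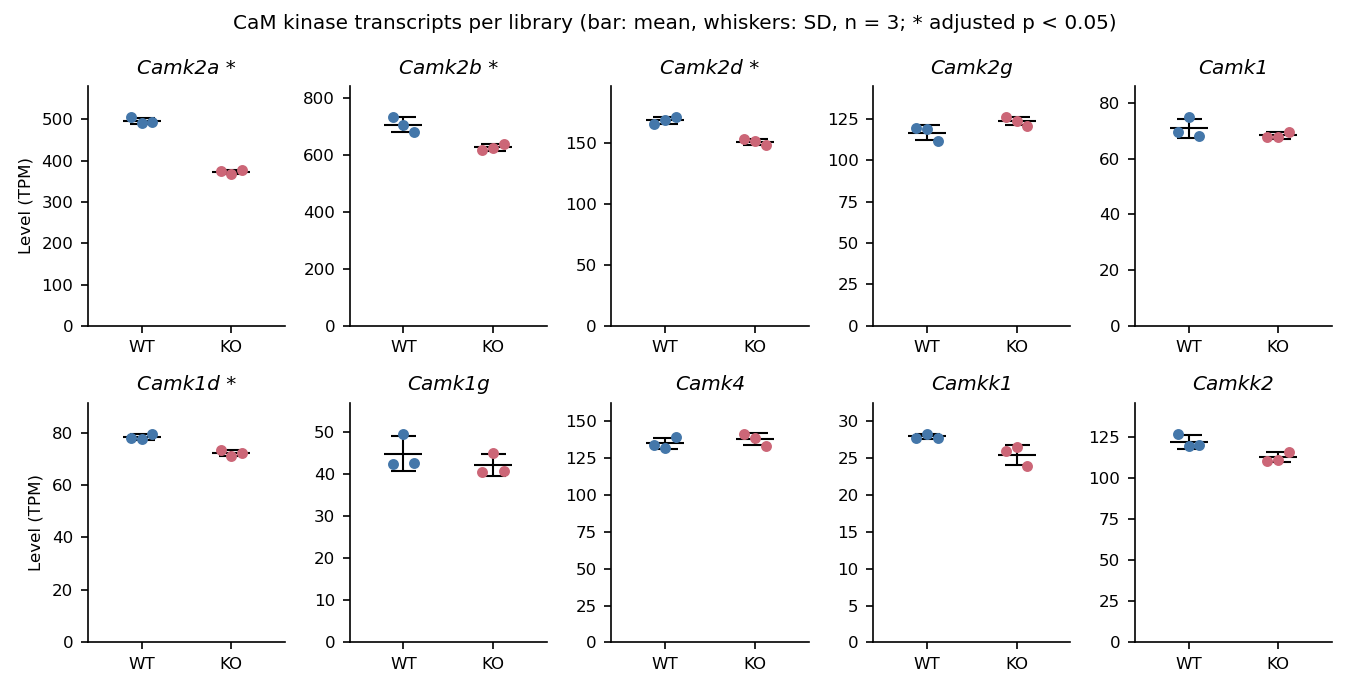
Level in TPM (vertical axes, each from 0) of the 10 kinase transcripts in the 3 WT and 3 KO libraries; points are libraries, long bars means and whiskers SD. The KO points of Camk2a, at 367 to 378 TPM, lie well below the WT points at 491 to 505 TPM. The means of Camk2a differ by 123 TPM, those of Camk2b by 79.3 TPM and those of the other genes by much less.

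Camk2a encodes the alpha subunit of CaMKII, the form long used as a mark of excitatory forebrain neurons. It held 505, 491 and 494 TPM in WT replicates 1, 2 and 3 and 374, 367 and 378 TPM in KO replicates 1, 2 and 3. The groups lay far apart: the gap between the lowest WT and the highest KO library was several times the range within either group. KO minus WT was -0.41 ± 0.02 on the log2 scale (SE; limma adjusted p = 7.9e-05), with a 95% interval from -0.46 to -0.36. The gene, on chromosome 18 from 60925618 to 60988152 (GRCm38, plus strand, protein coding), rested on 13380 to 19843 counts per library, and at the lowest of these counting alone gives a coefficient of variation of 0.865%. The measured one was 1.45% in WT and 1.39% in KO (n = 3 each). Of all tested genes, 753, or 5.03%, had a lower log2 fold change.

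Camk2b encodes the beta subunit, which binds and bundles actin filaments in dendritic spines, and was the most abundant kinase transcript of the family. It held 731, 704 and 678 TPM in the WT libraries and 616, 621 and 637 TPM in the KO libraries. All KO libraries lay below all WT libraries, and the WT libraries spread more widely than the KO libraries, with an SD of 26.4 against 10.8 TPM (n = 3 each). KO minus WT was -0.17 ± 0.03 on the log2 scale (SE; limma adjusted p = 0.012). The call was lost in 2 of 16 alternative settings, one of them the fit without the variance trend (adjusted p = 0.065), and it held when any single library was left out (adjusted p 0.0079 to 0.046). The gene lies on chromosome 11 from 5969644 to 6066362, on the minus strand.

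Camk2d and Camk2g encode the delta and gamma subunits, which many tissues make. Camk2d held 166, 169 and 171 TPM in the WT libraries and 153, 152 and 148 TPM in the KO libraries, without overlap. The change on the log2 scale was -0.16 ± 0.03 (SE; limma adjusted p = 0.0076), and the call held under each of the 16 alternatives (adjusted p 4.3e-04 to 0.046). It lies on chromosome 3 from 126596302 to 126846326, on the plus strand. Camk2g ran the other way, with 119, 119 and 111 TPM in the WT libraries and 126, 124 and 121 TPM in the KO libraries. Its KO libraries all lay above its WT libraries, as in 12.5% of all tested genes, but it did not pass: the difference was 0.08 ± 0.03 on the log2 scale (SE; limma adjusted p = 0.17), with an unadjusted 95% interval from 0.00 to 0.16. With voom on the recovered counts it passed (adjusted p = 0.027).

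Summed over the 4 genes, CaMKII transcripts came to 1520, 1484 and 1454 TPM in WT and to 1270, 1264 and 1284 TPM in KO, so that KO held 85.6% of the WT sum. Means differed by 213 TPM, with Camk2a lower by 123 TPM, Camk2b by 79.3 TPM and Camk2d by 17.6 TPM, and Camk2g higher by 6.94 TPM. The make-up of the pool differed too. Camk2a made up 33.2%, 33.1% and 33.9% of it in WT and 29.5%, 29.1% and 29.4% in KO, while Camk2g made up 7.84 ± 0.183% in WT and 9.70 ± 0.257% in KO (SD, n = 3). The share of Camk2b was 47.4 ± 0.722% in WT and 49.1 ± 0.542% in KO, and that of Camk2d, whose groups overlapped, 11.4 ± 0.442% and 11.9 ± 0.291%. Per Camk2b transcript there were 0.705 ± 0.0198 Camk2a transcripts in WT and 0.597 ± 0.00861 in KO, with no overlap between groups. This ratio compares genes within a library and does not depend on how libraries were scaled; it was not tested, since both genes were chosen with their values known.

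**Figure D2:**
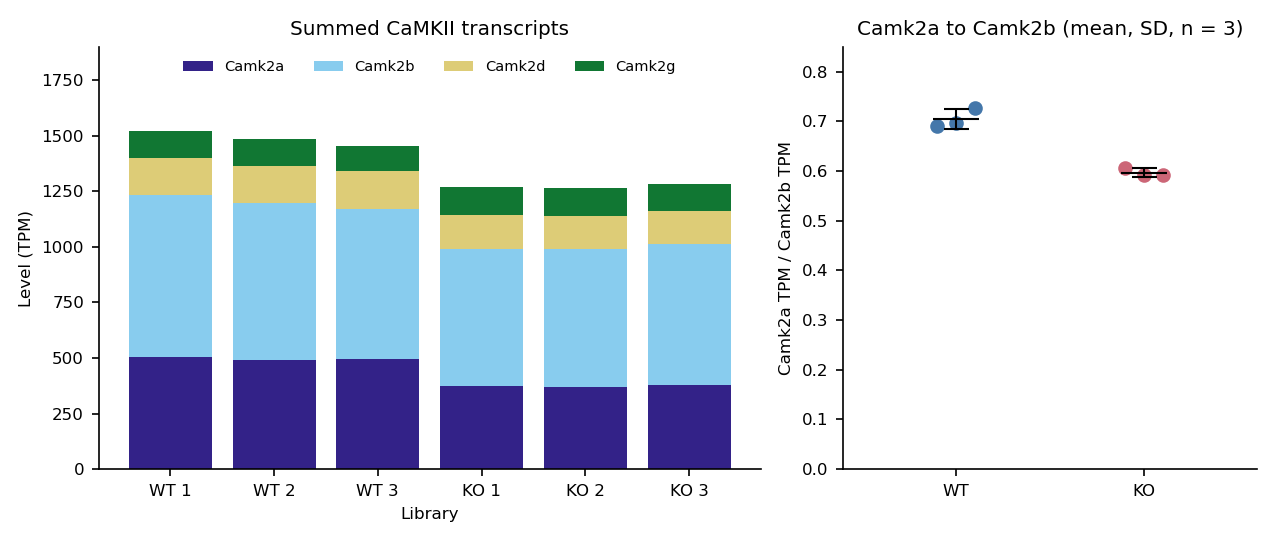
Left, TPM of the 4 CaMKII subunit genes stacked per library; right, Camk2a TPM divided by Camk2b TPM, with points for libraries, a bar for the mean and whiskers for the SD. The stacks reach 1454 to 1520 TPM in WT and 1264 to 1284 TPM in KO, and the ratio lies at 0.691 to 0.728 in WT and 0.591 to 0.607 in KO.

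The promoter sequences of the 2 other CaMKII genes that fell, Camk2b and Camk2d, are given with that of Camk1d, the fourth kinase that fell, and of Camk1g, which did not pass, because they show how differently members of 1 family can begin. Each is the 250 bases before a start that RefSeq gives, read 5′ to 3′ on the gene's strand (RefSeq, GRCm38.p6), with each GC box, GGGCGG or its reverse complement CCGCCC, in capitals. The gene positions in the text are the outer ends in another annotation, GENCODE M21, and the starts differ between them. By GENCODE the windows of Camk2b and Camk2d lie inside the gene, that of Camk1g overlaps its first bases, and that of Camk1d lies a short way before it. RefSeq promoters were found here for 7 of the 10 kinases, with 8 entries, since Camk1d has 2; the one farther upstream is printed.
Camk2b: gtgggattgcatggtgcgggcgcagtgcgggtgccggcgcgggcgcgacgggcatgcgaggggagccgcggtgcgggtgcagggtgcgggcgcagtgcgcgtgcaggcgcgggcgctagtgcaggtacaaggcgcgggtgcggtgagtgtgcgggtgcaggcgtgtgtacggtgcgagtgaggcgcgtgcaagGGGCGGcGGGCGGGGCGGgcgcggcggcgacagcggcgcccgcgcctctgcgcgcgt
Camk2d: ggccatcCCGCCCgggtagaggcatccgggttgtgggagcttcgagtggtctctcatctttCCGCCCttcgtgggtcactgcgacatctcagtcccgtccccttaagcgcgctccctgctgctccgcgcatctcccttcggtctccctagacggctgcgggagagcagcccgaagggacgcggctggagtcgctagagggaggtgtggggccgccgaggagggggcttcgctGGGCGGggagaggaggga
Camk1d: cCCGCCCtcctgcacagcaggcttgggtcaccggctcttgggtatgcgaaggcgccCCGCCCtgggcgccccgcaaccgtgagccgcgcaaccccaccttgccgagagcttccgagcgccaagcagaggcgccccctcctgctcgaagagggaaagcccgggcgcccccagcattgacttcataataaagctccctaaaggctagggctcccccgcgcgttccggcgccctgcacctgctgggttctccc
Camk1g: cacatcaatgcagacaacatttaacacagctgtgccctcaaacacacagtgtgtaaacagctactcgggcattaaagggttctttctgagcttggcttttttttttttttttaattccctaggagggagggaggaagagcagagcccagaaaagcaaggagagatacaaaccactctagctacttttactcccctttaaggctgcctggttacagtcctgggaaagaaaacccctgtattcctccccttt
The Camk2b sequence (chr11:6065749-6065998, minus strand) held 44 CG dinucleotides, more than 99.5% of 32851 mouse promoter windows of the same length, and 3 GC boxes. Camk2d (chr3:126596701-126596950, plus strand) held 23 CG dinucleotides and 3 GC boxes, and Camk1d (chr2:5714763-5715012, minus strand) 22 and 2. The other Camk1d window (chr2:5676047-5676296) held 5 CG dinucleotides and 1 GC box. Camk1g (chr1:193370283-193370532, minus strand) held 1 CG dinucleotide and no GC box. The windows of Camkk2, Camkk1 and Camk1, which are not printed, held 32, 29 and 11 CG dinucleotides and 1, 2 and 0 GC boxes. None of these genes passed, so genes with CG-rich windows stood both among those that fell and among those that did not pass. A GC box stood in 32.7% of all windows, and their median was 6 CG dinucleotides. The TATA box TATAAA, in 12.4% of windows, and the cAMP response element TGACGTCA, in 1.55%, were searched on both strands and stood in none of the kinase windows, while the core of that element, TGACG, in 17.8% of windows, was present in those of Camk1 and Camkk1. No chromatin measurement accompanies these sequences, and a match of letters is a description only.

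The CaMKI genes encode the kinases that CaMKK switches on in the cytosol and that are known for roles in axon and dendrite growth. Camk1d held 77.9, 77.6 and 79.5 TPM in the WT libraries and 73.4, 71.1 and 72.2 TPM in the KO libraries, without overlap between the groups. On the log2 scale the difference was -0.12 ± 0.03 (SE; limma adjusted p = 0.035), and the gene lies on chromosome 2 from 5293457 to 5714515. This call was the least secure of the 4. It was lost in 10 of 16 alternative settings, among them those without any single library (adjusted p 0.058 to 0.115), after median centring (0.074) or quantile normalization (0.063), and without the variance trend (0.084).

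Camk1, which encodes CaMKI alpha, held 69.7, 74.9 and 68.3 TPM in the WT libraries and 67.8, 67.6 and 69.7 TPM in the KO libraries, with overlap. The fitted log2 difference was -0.05 ± 0.04 (SE; limma adjusted p = 0.46), and the 95% interval ran from -0.14 to 0.04, that is from 90.5% to 103% of WT as a fold. Exons of Camk1 overlap those of Ogg1 on the other strand, and since the strand setting of the counting is not given in the sources used here, reads of the 2 genes may be mixed. Camk1g encodes CaMKI gamma, a lipid-anchored form of neuronal membranes. It was the most variable member, at 42.2, 49.5 and 42.6 TPM in the WT libraries and 40.4, 45.0 and 40.8 TPM in the KO libraries. In each group 1 library, replicate 2, stood above the others, the coefficient of variation was 9.14% in WT and 6.12% in KO, and counting alone gives 3.89% at its lowest count of 661. KO minus WT came to a log2 fold change of -0.09 ± 0.07 (SE; limma adjusted p = 0.49), with a 95% interval from -0.25 to 0.07, so a fall to 84.1% of WT lies within it.

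Camk4 encodes CaMKIV, the kinase of the neuronal nucleus. It held 134, 132 and 139 TPM in the WT libraries and 141, 138 and 133 TPM in the KO libraries, and the groups overlapped throughout. The change on the log2 scale was 0.03 ± 0.03 (SE; limma adjusted p = 0.65), on 10850 to 13490 counts per library. The 95% interval ran from -0.05 to 0.10, which excludes a fall as large as that of Camk2a. Exons of Camk4 overlap an antisense gene, 2310026I22Rik, which is not listed in the table.

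The upstream kinases Camkk1 and Camkk2 each had lower values in every KO library, as did 19.2% of all tested genes, but neither passed. Camkk2, whose product also phosphorylates AMP-activated kinase, held 127, 119 and 120 TPM in the WT libraries and 110, 111 and 116 TPM in the KO libraries. On the log2 scale the difference was -0.12 ± 0.03 (SE; limma adjusted p = 0.066, or 0.025 with voom on the recovered counts). Camkk1, the least abundant member, held 27.8, 28.3 and 27.8 TPM in the WT libraries and 26.0, 26.5 and 23.9 TPM in the KO libraries, on 545 to 723 counts. The fitted log2 difference was -0.13 ± 0.05 (SE; limma adjusted p = 0.13). There were 4.36 ± 0.177 Camkk2 transcripts per Camkk1 transcript in WT and 4.42 ± 0.369 in KO (SD, n = 3), with overlapping groups.

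**Figure D3:**
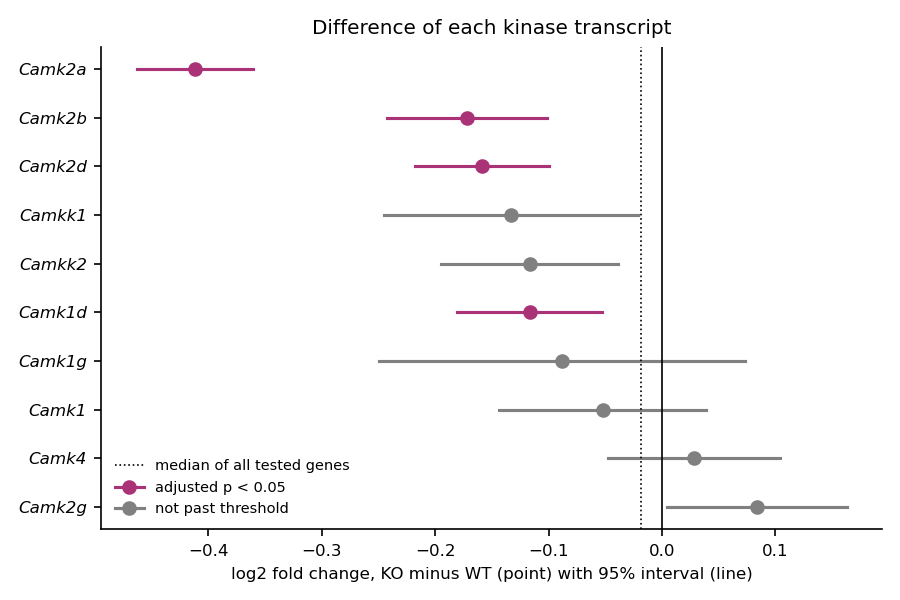
Log2 fold change of each kinase transcript, KO minus WT (horizontal axis; points), with its unadjusted 95% interval (lines), a solid line at 0 and a dotted line at the median of all tested genes, -0.02. Camk2a, at -0.41, stands apart from the other 9, which lie between -0.17 and 0.08.

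In WT the order of levels ran from Camk2b at 704 TPM through Camk2a at 497, Camk2d at 169, Camk4 at 135, Camkk2 at 122, Camk2g at 117, Camk1d at 78.4, Camk1 at 71.0 and Camk1g at 44.8 to Camkk1 at 28.0 TPM (means, n = 3). No neighbours in that order had overlapping ranges, although the lowest Camkk2 library, at 119.3 TPM, and the highest Camk2g library, at 119.2 TPM, nearly met. KO had the same order except that Camk2g, at 123 TPM, stood above Camkk2, at 112 TPM. These levels are per length, and the gene lengths that fit the values ran from 1434 nt for Camk1 to 12331 nt for Camk4.

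The genes most like Camk2a were those of at least 10 TPM whose log2 values, centred on their mean over the 6 libraries, lay nearest to its own. Of 10162 genes compared, Mical2, Ptk2b, Fam163b, Phyhip and Itpka were nearest, at root mean square distances of 0.023 to 0.029 on the log2 scale. Their KO means stood at 74.7% to 76.8% of WT, beside 75.1% for Camk2a, and this likeness holds in large part the difference between the groups. Mical2 encodes an actin-oxidizing enzyme and held 69.3 to 72.8 TPM in WT and 53.9 to 54.9 TPM in KO. Ptk2b encodes a calcium-sensitive tyrosine kinase and went from 80.2 ± 1.19 to 59.9 ± 2.58 TPM (SD, n = 3), and Itpka, for an inositol phosphate kinase, from 55.3 ± 1.47 to 41.5 ± 0.735 TPM. Fam163b went from 132 ± 4.29 to 102 ± 2.49 TPM and Phyhip from 160 ± 1.49 to 121 ± 1.94 TPM. Within the family the nearest gene was Camk2b, at a distance of 0.12, with 600 other genes nearer.

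Calmodulin, the calcium sensor upstream of the kinases, is held by small binding proteins. Calm2 stood at 97.8% of WT and Calm3 at 101%, and neither passed (adjusted p = 0.55 and 0.85). Of 8 genes listed for calmodulin and these proteins 4 fell, 1 rose and 3 did not pass. Of all tested genes 6.74% fell and 4.15% rose. Nrgn, whose product neurogranin holds calmodulin at resting calcium, went from 678, 657 and 650 to 549, 517 and 551 TPM (limma adjusted p = 0.0014), and Pcp4l1 fell to 76.4% of WT (adjusted p = 0.0023). Pcp4 fell to 89.9%, a call lost without WT replicate 2 and without each KO replicate in turn (at most 0.068). Gap43, the growth cone protein, rose to 107%, a call lost whichever library was left out (highest adjusted p 0.105) and set to a log2 fold change of -0.00047 by quantile normalization.

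Among the pathway lists, that of CaMKII inhibitors, partners and anchoring proteins had the largest share of genes that fell. In it 12 of 19 fell, none rose and 7 did not pass, against 6.74% lower over all tested genes. None was higher at an unadjusted p under 0.05 or with voom either. Camk2n1, which encodes a small protein that binds and inhibits CaMKII, held 268, 260 and 276 TPM in the WT libraries and 205, 187 and 195 TPM in the KO libraries. KO minus WT came to a log2 fold change of -0.45 ± 0.04 (SE; limma adjusted p = 5.4e-04), so inhibitor and Camk2a transcripts were both lower in KO. The second inhibitor gene, Camk2n2, held 155 to 169 TPM in WT and 162 to 173 TPM in KO and did not pass (adjusted p = 0.74). Actn2 and Actn1 encode alpha-actinins, actin cross-linkers that bind CaMKII: Actn2 went from 19.3, 19.1 and 17.2 to 12.0, 10.4 and 11.5 TPM (limma adjusted p = 0.0013). Actn1 went from 68.7 ± 2.19 to 47.9 ± 1.03 TPM (SD, n = 3; adjusted p = 2.4e-04). Gria1, the AMPA receptor subunit that CaMKII phosphorylates, fell to 84.9% of WT. Per 100 CaMKII transcripts there were 18.0 ± 0.802 Camk2n1 transcripts in WT and 15.4 ± 0.689 in KO, without overlap.

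**Figure D4:**
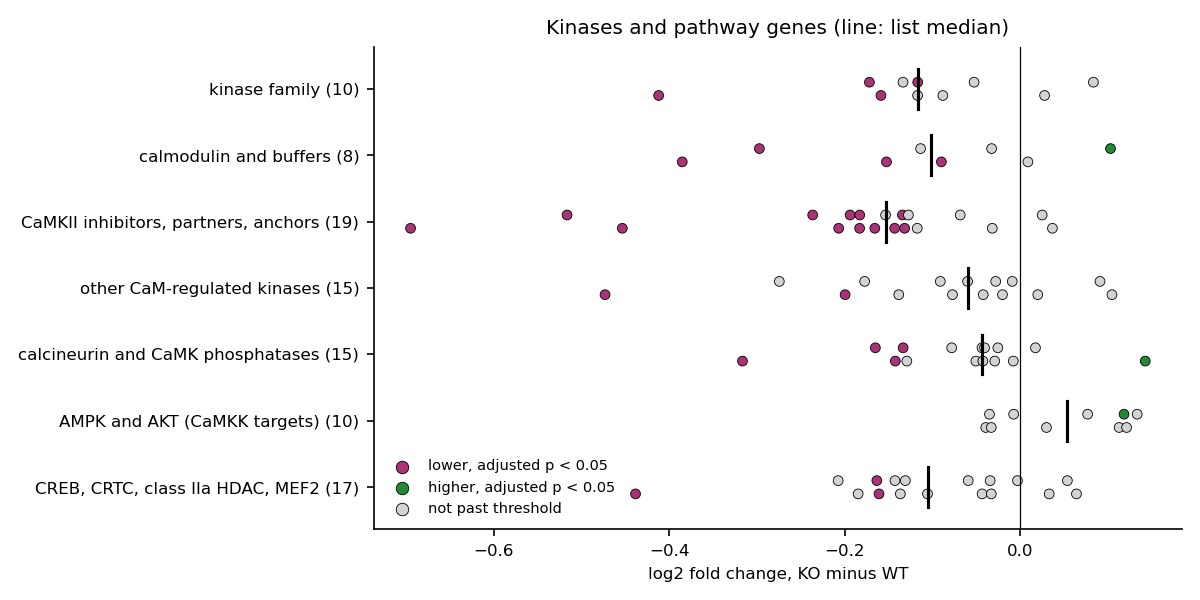
Log2 fold change, KO minus WT (horizontal axis), of the 10 kinases and of 84 tested genes in 6 pathway lists, with list sizes in brackets; points are genes, coloured by whether they passed the test and in which direction, and short lines are list medians. The medians run from -0.15 for CaMKII inhibitors, partners and anchors to 0.05 for the list of AMP-activated kinase, AKT and Stk11.

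Among 15 tested genes for other calmodulin-regulated and related kinases 2 fell and none rose, against 6.74% and 4.15% of all tested genes. At an unadjusted p under 0.05, 1 was higher, against 10.3% of all tested genes, and with voom 1, against 8.49%. Dclk3, a doublecortin-like kinase gene, went from 31.6, 30.4 and 29.1 to 20.9, 22.1 and 22.2 TPM (log2 fold change -0.47 ± 0.05 SE; limma adjusted p = 0.0012). Pnck, the X-linked gene of CaMKI beta, fell to 87.2% of WT (adjusted p = 0.042). Its WT libraries lay within 83.1 and 83.3 TPM, and its KO libraries at 71.7, 67.6 and 78.2 TPM. The call held without KO replicate 3 and was lost without each of the other libraries (highest adjusted p 0.114).

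Of 15 genes for the opposing phosphatases, calcineurin with its regulators and the phosphatases of CaM kinases, 4 fell, 1 rose and 10 did not pass. As shares, 26.7% fell and 6.67% rose, against 6.74% and 4.15% of all tested genes. Ppp3ca, the main catalytic subunit of calcineurin in neurons, fell from 648 ± 7.23 to 591 ± 2.06 TPM (SD, n = 3; limma adjusted p = 0.0051, or 0.0501 without the variance trend). Rcan2, a regulator of calcineurin, fell to 80.2% of WT (adjusted p = 0.0041). Rcan3 rose to 110.5% and Cabin1, a calcineurin inhibitor gene, fell to 90.5%. Rcan3 lost its call whichever library was left out (highest adjusted p 0.073), and Cabin1 except without WT replicate 2 (highest 0.091).

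CaMKK phosphorylates AMP-activated kinase and AKT. Of 10 tested genes for AMP-activated kinase subunits, AKT and Stk11, Akt2 rose to 108.6% of WT (limma adjusted p = 0.032) and none fell. Of all tested genes 4.15% rose and 6.74% fell. None was lower at an unadjusted p under 0.05 or with voom, and 3 were higher by each, against 10.3% and 8.49% of all tested genes. The Akt2 call was lost whichever library was left out (highest adjusted p 0.106). Of 17 genes for the transcriptional arm, CREB and its coactivators, class IIa deacetylases and MEF2, 3 fell and none rose. At an unadjusted p under 0.05 these counts were 7 and 0, and with voom 5 and 0. The shares of all tested genes were 6.74% lower and 4.15% higher as called, 16.2% and 10.3% unadjusted, and 9.04% and 8.49% with voom. Mef2c, a transcription factor of activity-dependent gene expression, fell from 469 ± 6.51 to 419 ± 14.5 TPM (SD, n = 3; limma adjusted p = 0.012, or 0.066 without the variance trend). Crtc2, a CREB coactivator gene, fell to 73.0%, a call lost without WT replicate 1 (adjusted p = 0.055) or WT replicate 2 (0.051), and Hdac9 to 89.1%, lost without any single library (up to 0.078). Over all 6 lists 25 of 84 tested genes fell and 3 rose, with a median log2 fold change of -0.07. As shares, 29.8% fell and 3.57% rose, against 6.74% and 4.15% of all tested genes, so rises were near the share over all genes. The count of falls was 15 without WT replicate 1, WT replicate 2 or KO replicate 2, and that of rises was 0 without any single library.

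Markers of several cell types also differed between the groups. Beside the marker counts that follow, 6.74% of all tested genes were lower in KO and 4.15% higher. At an unadjusted p under 0.05 these shares were 16.2% and 10.3%, and with voom 9.04% and 8.49%. Excitatory neuron markers summed to 974 to 991 TPM in WT and 706 to 747 TPM in KO, with 5 of 9 lower and 1 higher. Slc17a7, the vesicular glutamate transporter of cortical excitatory neurons, alone went from 480 to 269 TPM, or 56.0% of WT, and so holds much of the fall of that sum. Slc17a6 stood at 15.9% of WT. The marker that rose was Fezf2, to 128% of WT (limma adjusted p = 0.0014), and Bcl11b and Neurod6 did not pass (99.4% and 107.6% of WT). GABAergic markers summed to 1278 to 1322 TPM in WT and 948 to 1024 TPM in KO, with 7 of 9 lower and 1 higher. Sst alone went from 583 to 425 TPM. Dlx1 rose to 125% of WT (limma adjusted p = 0.0026), and Dlx2, at 119%, did not pass (adjusted p = 0.062). Markers of astrocytes and radial glia summed to 4647 to 4815 TPM in WT and 5196 to 5386 TPM in KO, with 3 of 10 higher and 1 lower. The higher ones were Fabp7, Aldoc and Slc1a3, of which Fabp7 alone held 2410 to 2586 TPM in WT. At an unadjusted p under 0.05, 5 were lower and 3 higher, with voom 4 and 3, and the median log2 fold change of the 10 was -0.05. Those of meningeal fibroblasts summed to 35.2 to 36.3 TPM and 45.1 to 57.6 TPM, with 3 of 5 higher. Endothelial and pericyte markers, at 18.4 to 19.7 TPM in WT and 16.8 to 17.9 TPM in KO, had 1 of 5 tested lower. With voom 1 was lower and 1 higher, and the median log2 fold change of the 5 was 0.16. Oligodendrocyte lineage markers, at 654 to 694 TPM and 656 to 684 TPM, had 2 of 8 tested lower, and dividing cell markers 0 of 6 called by limma, though 2 were lower at an unadjusted p under 0.05 and 1 with voom (sums of 117 to 121 TPM in WT and 104 to 113 TPM in KO). None of the listed markers was at 0 in all 6 libraries. The part of cell make-up in the falls of Camk2a and the other kinases was not tested, and in bulk RNA fewer cells of a type and less RNA per cell cannot be told apart.

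**Figure D5:**
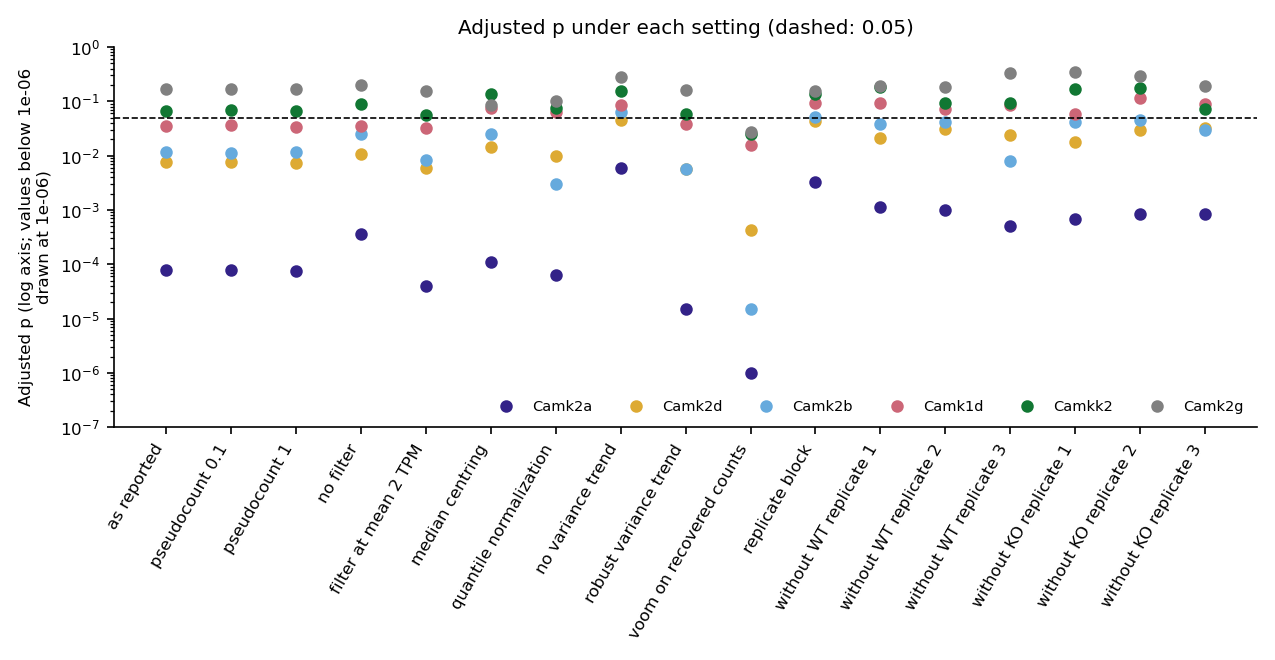
Adjusted p (vertical axis, logarithmic) of 6 kinase genes as reported and under 16 alternative settings (horizontal axis), with the threshold of 0.05 dashed; the voom value of Camk2a is drawn at the floor named on the axis. Camk2a and Camk2d stay below the line in every setting shown, Camk2b crosses it in 2, and Camk1d lies above it in 10.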

How the data were processed

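Per the submitters' processing notes, the authors worked on mm10 with featureCounts, TopHat, edgeR, Picard 1.127, FastQC 0.11.2 and bcl2fastq 2.17. What each did, the annotation, strand and scaling: not given in the sources used here. Values deposited by the authors are TPM, since each column sums to 1000000, although the table is named for FPKM. Each value times a gene length fell on whole counts in every library for 100.0% of 19369 entries above 0 (tolerance 0.001 counts plus 2e-08 of the value). The smallest such counts are used, so counts and totals are lower bounds. Within a group, libraries differed beyond counting noise (median chi-square 1.26 to 1.98 times its expectation), and none was dropped.

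The fit was limma 3.58.1 in R 4.3.3 on log2 of TPM plus 0.5, with a variance trend and no covariates, as designed, over genes whose mean reached 0.5 TPM. Voom used trimmed-mean (TMM) library sizes. Fold changes on this scale slightly understate those of low genes. Percent of WT is a ratio of group means. Positions come from GENCODE M21. The kinases and lists were chosen with earlier results of these data known. Beside the kinases and Kdm6b, the text names the calmodulin and CaMKII inhibitor genes, in each pathway list up to 4 genes with the smallest p that passed, or 2 as values where none did, and the 5 genes nearest to Camk2a; the markers named were chosen after their values were seen. Some genes under these rules are not reported here. Alternatives changed the pseudocount, filter, scaling, variance trend, test, block or library set.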

Additional observations from a re-analysis of the deposited data

How the results depend on the processing

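Of the 10 kinases 4 were called lower as reported, 2 without the variance trend, 2 with the replicate block, 3 without any single library and 3 after median centring or quantile normalization. None was called higher except 1, Camk2g, with limma voom on the recovered counts. Without the variance trend 658 genes of the whole table were lower and 406 higher, and of the pathway genes 15 and 1. With the replicate block these counts were 585, 360, 16 and 0, and Camk2b (adjusted p = 0.0525) and Camk1d (0.0934) did not pass. The replicate numbers are not known to pair the libraries: deviations from the group means of same-numbered WT and KO libraries correlated at 0.008, -0.051 and 0.011 over the tested genes. With voom 1272 genes were higher, and of the pathway genes 6. Leaving out 1 library gave 531 to 698 lower and 355 to 454 higher genes over the table, with a filter on the libraries that stayed, and 15 to 20 lower and 0 higher pathway genes.

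Of 608 single-gene values under the 16 alternatives, 519 kept direction and call, 81 kept the direction but lost the call, 2 gained one and 6 changed sign. The sign changes were those of Gap43 with quantile normalization (-0.00047), of Calm3 with quantile normalization (-0.0747, adjusted p = 0.0295), and of Calm3 and Camk2n2 when replicate 3 of WT (-0.0044 and -0.0098) or of KO (-0.0026 and -0.0036) was left out. Leaving out 1 library gave -0.0044 to 0.0203 for Calm3 and -0.0098 to 0.0495 for Camk2n2. Among the pathway genes named that passed, median centring ended the calls of Pnck and Cabin1, quantile normalization that of Pcp4, and no filter those of Gap43 and Pnck. Without the variance trend those of Pcp4, Gap43, Pnck, Ppp3ca, Cabin1, Akt2 and Mef2c were lost, and with the replicate block those of Pcp4, Gap43, Pnck, Rcan3, Cabin1, Akt2 and Hdac9. The cause of these changes was not tested. Log2 fold changes of Camk2a stayed between -0.42 and -0.39. Depth limits Camkk1 most, where 545 counts give a counting coefficient of variation of 4.28%.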
